A study of Mus musculus with 5 samples.

Results

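The regions described here are promoters of Th9 cells at which a BATF summit was listed without a PU.1 summit. They were chosen by the measured summit positions themselves: a BATF summit on chromosomes 1 to 19 or X was kept if it lay within 1000 bp of a GENCODE M21 transcript start and no summit of PU.1, Input, goat Ig or rabbit Ig lay within 500 bp. Of 4060 BATF summits, 3947 were on these chromosomes, 1194 of them were near a start, and 557 (13.7% of the list) met every condition. The absence of a PU.1 summit was therefore part of the choice and is not a result.

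The series is a ChIP-Seq study of CD4 T cells driven towards Th9 cells, helper T cells that make IL-9. In ChIP-Seq an antibody recovers fragments of cross-linked chromatin, the fragments are sequenced, and the point where they pile up highest is a summit. There was 1 library each for PU.1, BATF, goat Ig, rabbit Ig and Input, together 38651 summits, so there were no replicates and no test was made. All libraries came from wild-type C57/Bl6j mice aged 7 weeks. Naive CD4 T cells of spleen and nodes were cultured on plates coated with antibodies to CD3 and CD28, with IL-4 (20 ng/ml), TGF-β (2 ng/ml) and an antibody blocking IFNγ. The culture time for these libraries was 24 h, although the labels give it only as hours without a number. The antibodies to BATF and PU.1 are both named as rabbit antibodies in the methods, so rabbit Ig is the control of the same species and Input is chromatin sequenced without precipitation. Cell type markers could not be checked, since summit lists hold no expression values.

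BATF is a basic leucine zipper protein of the AP-1 family. It has no activation domain of its own, pairs with JUN proteins on AP-1 sites, and in T cells binds composite elements together with IRF4. PU.1 is an ETS factor that binds purine-rich sites and takes part in the Th9 programme, and many promoters of mammalian genes lie in CpG islands, stretches rich in G, C and the CpG dinucleotide.

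Most promoters with BATF and no PU.1 had their summit in such a stretch. In the 200 bp around the summit the median GC content was 80.5%, with quartiles of 78% and 82.5% and a range from 34% to 87.5%. Around the starts of 21755 protein-coding genes the median was 58.5%. A window held a median of 33 CpG dinucleotides, against 10 at all protein-coding starts, and the median ratio of observed to expected CpG was 1.03. The GC content was at least 80% in 330 of the 557 windows, or 59.2% (exact 95% interval 55.0% to 63.4%), and in 3.07% of the windows at protein-coding starts. The intervals cover counting error only, and neighbouring summits are not independent.

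Only 11 summits had a GC content from 60% to 75%, so the windows fell into 2 separate ranges. At least 75% GC was found in 492 windows and under 60% in 54. The former lay a median of 94.5 bp from the nearest start and had a median score of 5.22. The latter lay a median of 660.5 bp away, had a median score of 3.997 and no score above 6.51, and 50 of the 54 were masked as repeats over more than 50% of their length. Protein-coding genes were nearest to 95.1% of the summits of high GC content and to 63.0% of those of low GC content.

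The score is the value the peak caller gave each summit, and its definition is not given in the sources used here, so it serves only to rank summits within the BATF list. Scores of the 557 summits ran from 1.41 to 21.5 with a median of 5.16, while the whole BATF list ran from 1.32 to 429 with a median of 4.74. The 556 BATF summits at promoters that did have a PU.1 summit within 500 bp, and none of a control, had a median of 5.92 and reached 141. When all promoter BATF summits away from controls were split by score into 4 groups of near equal size, 63.6% of the lowest group (178 of 280), 51.1% of the second, 48.3% of the third and 37.1% of the highest (103 of 278) were without PU.1. Sequencing depth cannot be read from the lists, and a summit is listed once its signal has passed a threshold, so PU.1 signal under that threshold at these promoters was not tested.

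Within the 557, GC content moved with the score. A GC-rich window was defined as one of 65% GC or more in which masked bases made up less than 25% and no simple repeat was found. With the 557 split by score in the same way, such windows made up 80.1% of the lowest group, 79.7% of the second, 88.5% of the third and 95.5% of the highest. Simple repeats made up 7.80%, 13.3%, 10.1% and 1.49% of the same groups.

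The choice excluded PU.1 summits within 500 bp, so the lack of nearer ones is not a result. The median distance to the nearest PU.1 summit was 86041 bp. At BATF summits without PU.1 that lay over 1000 bp from any start it was 95645.5 bp. Of the 557 summits, 282 had their nearest PU.1 summit between 10 and 100 kb away, and 242 had it beyond that. Just inside the limit of the rule, 10 summits had PU.1 over 500 and up to 1000 bp away, with a median score of 4.60 and a median GC content of 82.25%. Just outside it, 37 promoter BATF summits had PU.1 over 250 and up to 500 bp away, with a median score of 4.91 and a median GC content of 81%. At the limit on the distance to a start, the 11 summits at over 900 and up to 1000 bp had a median score of 3.92 and a GC content of 46%, and 4 otherwise eligible summits at up to 1100 bp had 4.16 and 42.5%.

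In all, 478 windows were GC-rich, or 85.8% (interval 82.6% to 88.6%). The share was 92.8% (90.3% to 94.8%) at promoter BATF summits with PU.1 and 71.6% (68.0% to 74.9%) at the 675 promoter PU.1 summits without BATF. It was 2.11% at the 1136 BATF summits without PU.1 that lay over 1000 bp from any start, whose median GC content was 42%, and 30.8% at protein-coding starts. Of 22 rabbit Ig summits at promoters, 3 were GC-rich, and their median GC content was 36.5%. Thus the 3 kinds of promoter summit shared a GC-rich majority, and the interval of BATF without PU.1 lay between those of the other kinds without overlapping them.

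Seen from the genes, promoters with a BATF summit and no PU.1 were more frequent where the start was richer in GC. In all, 548 of 21728 protein-coding gene names had such a summit within 1000 bp of a start, or 2.52%. Among genes whose 200 bp window around the start had under 40% GC the share was 0.830%, and it was 0.724% (interval 0.489% to 1.03%) at 40% to 50%, 1.36% at 50% to 60% and 1.17% at 60% to 65%, with no steady rise up to there. It was 1.99% at 65% to 70%, 4.11% at 70% to 75%, 8.29% at 75% to 80% and 18.9% (16.0% to 22.1%) at 80% or more, where 126 of 667 genes had one. In that highest range 22.5% of genes had a summit shared with PU.1 and 13.5% a PU.1 summit without BATF.

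GC content peaked at the summit and not only over the promoter as a whole. In 200 bp windows stepping outwards from the summit along the gene's strand, the median GC content rose from 47% at 1000 bp upstream to 61% at 400 bp and 71.5% at 200 bp, stood at 80.5% at the summit, and fell to 71.5% at 200 bp, 64% at 400 bp and 47.5% at 1000 bp downstream. The window at the summit had the highest GC content of its 11 windows in 379 of 557 cases, or 68.0% (64.0% to 71.9%). The share was 70.9% (66.9% to 74.6%) at promoter BATF summits with PU.1 and 53.2% at promoter PU.1 summits without BATF. The window at the start had the highest value in 28.2% of protein-coding genes examined in the same way.

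Each summit was also compared with its mirror image on the other side of the nearest start, a position at the same distance from the same promoter. At summits under 100 bp from the start the 2 windows overlapped, and 262 of the 557 lay within 100 bp. A summit at the start itself is its own mirror image. All pairs were kept. Of the 557 summits, 334 lay downstream of the start, so their mirror positions lay upstream. Around all protein-coding starts the median GC content was 51% at 200 bp upstream and 59.5% at 200 bp downstream. The part of this asymmetry in the comparison was not tested. The summit window had the higher GC content in 408 of 557 pairs (73.2%), with a median difference of 5 percentage points, and 85.8% of summit windows but 64.3% of mirror windows were GC-rich. Against the window at the start itself the summit was higher in 351 pairs (63.0%), with a median difference of 1.5 points. The same 2 comparisons gave 77.7% and 63.1% for summits shared with PU.1.

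A start within 1000 bp was part of the choice, so closeness to starts as such is not a result. Within that limit the median distance to the nearest start was 111 bp, with quartiles of 39 and 276 bp. The median was 103.5 bp at promoter BATF summits with PU.1 and 161 bp at promoter PU.1 summits without BATF. Within 100 bp of a start lay 262 summits (47.0%). Downstream of the start lay 334 summits (59.96%, interval 55.8% to 64.1%) and upstream 220 (39.5%). The downstream share was similar at promoter BATF summits with PU.1 (58.5%) and at promoter PU.1 summits without BATF (59.0%). The bands from -100 to -1 and from 0 to 100 held 123 and 139 summits, and the next band downstream, up to 250, held 99 against 40 in the band of the same width upstream. The summit base lay in an untranslated part of an exon in 227 cases, in an intron in 154, between genes in 88, in coding sequence in 68 and in an exon of a noncoding transcript in 20. A divergent promoter, with another start on the opposite strand within 1000 bp, was present in 94 cases (16.9%, 13.9% to 20.3%). The share was 21.2% at the promoters shared with PU.1, 15.0% at those with PU.1 and no BATF, and 20.0% at all protein-coding starts.

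The windows were then searched on both strands for short strings that stand for known sites. A match describes letters and is not evidence of a bound site. The AP-1 strings TGACTCA and TGAGTCA, the letters that BATF and JUN pairs recognise, were found in 1 of 557 windows, or 0.180% (0.00455% to 0.996%), compared with 2.81% of the windows at all protein-coding starts. Since letters depend on GC content, the 492 windows of at least 75% GC were also set beside the 2030 protein-coding starts of at least 75% GC. This cut did not match the 2 sets for GC, since 330 of these windows and 667 of these starts had at least 80% GC. The AP-1 share was then 0.203% (0.00515% to 1.13%) and 1.18% (0.759% to 1.75%), with overlapping intervals. At the summits shared with PU.1 it was 1.08%, or 6 of 556.

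The single AP-1 string was at Mafg, which encodes a small MAF protein, itself a basic leucine zipper factor. The summit at chr11:120633187 (GRCm38, as for all positions here) had a score of 4.75 and lay in an intron, 369 bp downstream of the nearest start, and the string lay 83 bp from it. The cAMP response element string TGACGTCA, which also binds basic leucine zipper pairs, was found in 4 windows (0.718%) and in 2.03% of all protein-coding starts. These were Gm21887, a predicted gene, Purb, which encodes a protein binding purine-rich single strands, Prr3 and 9430091E24Rik. The string was 18 to 64 bp from the summit in these 4. All of these matches are shown with 11 bases on either side, with the string in capitals, because they are the only windows of the set holding these letters.
Mafg (chr11:120633090-120633118, plus strand): cggacacctgaTGAGTCAgcagctcggtg
Gm21887 (chrX:170009152-170009181, plus strand): gtcccgcggggTGACGTCAcgcgggccccg
Purb (chr11:6476087-6476116, plus strand): cgcgcctcccgTGACGTCActccgccccgc
Prr3 (chr17:35980049-35980078, plus strand): ccgctcgctgcTGACGTCAccgcggccccg
9430091E24Rik (chr8:111145614-111145643, plus strand): ccgacgcgccgTGACGTCAccgcggcgggc

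Several strings of common promoter factors were less frequent at the summits than around high-GC starts. The 2 sets were not matched for GC above the cut of 75%. At least 80% GC was found in 330 of the 492 windows and in 667 of the 2030 starts. The part of this difference in the lower shares was not tested. Position differed too, since the start windows were centred on a start and 304 of the 492 summits lay downstream of one. The part of position was not tested either. CCGGAAG, the core of many ETS sites, was in 4.27% (2.66% to 6.45%) of the 492 windows of at least 75% GC and in 7.78% (6.65% to 9.04%) of the 2030 starts. CCAATC or CCAATG followed by A or G, the CCAAT box that NF-Y recognises, was in 3.86% (2.34% to 5.97%) and 8.87% (7.67% to 10.2%). GGGCGGG, the GC box of the SP and KLF factors, was in 53.3% (48.7% to 57.7%) and 73.2% (71.2% to 75.1%). CACGTG, the E-box of MYC and USF, was in 2.44% and 7.29%, and AANATGGC, a YY1 string, in 2.24% and 5.22%. For these 5 the intervals did not overlap, while those of CGCATGCG, the NRF1 string, and of the cAMP response element did. Summits shared with PU.1 also had lower shares than the starts. At the 533 summits shared with PU.1 of at least 75% GC the ETS core was in 6.004% (4.14% to 8.37%, overlapping the interval at starts). The YY1 string was in 2.63% (1.44% to 4.37%), which also overlapped the interval at starts (4.29% to 6.28%). The CCAAT box was in 4.32%, the GC box in 49.2% and the E-box in 3.75%, without overlap. The PU.1 string GAGGAAGT was in 3 of the 557 windows (0.539%), in 0.180% of the windows shared with PU.1 and in 2.30% of all protein-coding starts. At 75% GC or more it was in 0.610% (0.126% to 1.77%) of the summit windows and 0.640% (0.341% to 1.09%) of the starts.

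The CCAAT box was also compared within the same promoters. It was in 3.77% of the 557 summit windows, in 8.80% of the mirror windows and in 9.69% of the windows at the starts. Summits shared with PU.1 gave 4.14%, 10.1% and 8.27%, and PU.1 summits without BATF 5.78%, 8.44% and 9.19%. The mirror windows had a median GC content of 74% against 80.5% at the summits, so these windows were not matched for GC. Nor were they matched for the side of the start, since 334 of the 557 summits lay downstream and their mirror positions upstream. The part of either difference in the shares of the CCAAT box was not tested. The GC box did not show the pattern of the CCAAT box, with 48.1% at the summits, 42.7% at the mirror positions and 50.3% at the starts. ACTACAAT was in no window, which allows a share of up to 0.660% by the exact interval, and it was in 0.542% of all protein-coding starts and 0.0493% of those of at least 75% GC, both below that bound. TATAAA was in 5 (0.898%), compared with 8.12% of all protein-coding starts. At 75% GC or more its shares were 0.610% and 0.788%, with overlapping intervals.

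The 12 summits of highest score had 11 GC-rich windows and no AP-1 string. The highest, 21.5, was 439 bp upstream of Gm21887 at chrX:170009220, 1022079 bp from the end of the chromosome, with a PU.1 summit 1771 bp and an Input summit 2978 bp away. The second, with a score of 14.9, was 84 bp upstream of a start of Jade1, a subunit of a histone acetyltransferase complex, at chr3:41563523, and its window had 86% GC. The summit of Ttc39a, at chr4:109407129 with a score of 14.6, was at the start itself, and its nearest Input summit was 3646 bp away.

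Tmem117, a membrane protein, had a score of 11.8, and Purb and Kmt2d each had 11.6. Kmt2d encodes a methyltransferase of histone H3 active at enhancers, and its summit at chr15:98871507 was 303 bp upstream of the start. A summit with a score of 11.6 at chr1:191907493 lay in coding sequence where the zinc exporter gene Slc30a1 and the antisense transcript 1700034H15Rik start in opposite directions. Wnk2, a kinase gene, and Smad2, a signal transducer of the TGF-β receptor, each had 11.1. Itsn2, an endocytic scaffold, had 11.04, and the promoter shared by Banp, which encodes a nuclear matrix protein, and the noncoding Gm27011 had 10.8, the only window of the 12 that was not GC-rich, because 36% of it was masked.

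The base order around the summit is shown for 4 of these summits that have no annotated exon within their 200 bp window, 100 bp each on the strand of the named gene, with every CG in capitals. Each holds 20 to 22 CG dinucleotides.
Gm21887 (chrX:170009170-170009269, plus strand): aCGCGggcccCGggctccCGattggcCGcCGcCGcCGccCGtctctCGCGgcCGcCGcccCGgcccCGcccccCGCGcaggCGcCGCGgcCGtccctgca
Purb (chr11:6475987-6476086, minus strand): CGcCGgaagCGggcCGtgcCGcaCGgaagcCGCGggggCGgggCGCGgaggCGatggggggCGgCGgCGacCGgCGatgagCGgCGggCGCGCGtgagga
Kmt2d (chr15:98871457-98871556, minus strand): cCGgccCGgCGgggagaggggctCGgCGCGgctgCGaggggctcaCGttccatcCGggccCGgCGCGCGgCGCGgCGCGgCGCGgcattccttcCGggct
Gm27011 (chr8:121950752-121950851, minus strand): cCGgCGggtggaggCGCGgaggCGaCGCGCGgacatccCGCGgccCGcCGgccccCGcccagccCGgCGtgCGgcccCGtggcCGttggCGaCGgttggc

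The 54 summits of under 60% GC were of another kind. A simple repeat, in which more than 50% of the bases equal the base 1 to 6 bp before them, was present in 31 of them (57.4%, 43.2% to 70.8%). A long motif named IRF8 motif in the study, with T at alternate positions, was in 34 of the 54 (63.0%) and in none of the 492 windows of high GC content. Of these 34 windows, 26 held a simple repeat. Among promoter summits of under 60% GC the motif was in 8 of 12 shared with PU.1. It was in 99 of 170 with PU.1 and no BATF. The share of the motif was 46.5% at distal BATF summits without PU.1 and 1.53% at protein-coding starts. Those starts were not matched for GC content or repeats. Low-GC summits made up 9.69% of promoter BATF summits without PU.1, 2.16% of those with PU.1 and 25.2% of promoter PU.1 summits without BATF. The highest-scoring of them was at Vmn1r79, a vomeronasal receptor gene, with a score of 6.51. It was chosen after its values were seen and is shown in the same way, to set it against the CG-rich summits. It is a purine repeat and holds no match to the IRF8 motif.
Vmn1r79 (chr7:12171624-12171723, plus strand): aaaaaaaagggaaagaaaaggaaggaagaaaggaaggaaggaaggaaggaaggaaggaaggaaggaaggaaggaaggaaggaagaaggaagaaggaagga

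Of 35 genes encoding AP-1, ATF and CREB factors, 3 had a summit (8.57%, 1.80% to 23.1%), an interval that holds the 2.52% of all protein-coding genes. Besides Mafg these were Fosl2, a FOS-family partner of JUN, with a score of 4.74 at 683 bp upstream, and Nfil3, a leucine zipper repressor, with 4.05 at 147 bp downstream. The median GC content at the starts of the list was 65.5%, above the 58.5% of all genes. A BATF summit shared with PU.1 was found at 3 of the 35 genes as well, beside 2.55% of all protein-coding genes.

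Of 54 genes of IRF, ETS, STAT and lineage factors, 5 had a summit (9.26%, 3.08% to 20.3%), beside 2.52% of all protein-coding genes. A summit shared with PU.1 was at 6 of the 54, beside 2.55% of all, and a PU.1 summit without BATF at 4, beside 2.81%. The 5 genes with BATF and no PU.1 differed in kind. Stat5b, a transducer of IL-2 signals, had a summit with a score of 7.21 in its first exon, 91 bp downstream of a start, in a window of 82% GC. Runx3, a Runt-domain factor of T cell lineages, had one with 5.76 at 11 bp upstream of a start, with 79% GC. The summit counted for Foxp3, the factor of regulatory T cells, had a score of 7.80 but lay 560 bp downstream of a Foxp3 start and only 44 bp downstream of a start of its neighbour Ppp1r3f, in coding sequence of 81% GC. Irf2 and Ikzf3, an IRF family factor and a zinc finger protein of the Ikaros family, had summits with scores of 5.30 and 5.22 in simple repeats of 35% and 47.5% GC with no CpG, at 776 bp downstream and 878 bp upstream.

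Of 44 T cell receptor and activation genes, 2 had a summit (4.55%, 0.555% to 15.5%), beside 2.52% of all protein-coding genes, which lies within the interval. Relb, an NF-κB subunit, had a score of 5.22 at 35 bp downstream of the start, and Plcg1, a phospholipase of receptor signalling, had 2.73 at 117 bp upstream. The list of 44 Th9 cytokine and TGF-β pathway genes also had 2, with the same interval, both of them SMAD genes on chromosome 18. The summit of Smad2 was 154 bp upstream of the nearest start, and Smad4, the common partner of the receptor SMADs, had a score of 3.12 at 414 bp downstream, in an intron.

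In the housekeeping lists the shares ran from 0% to 3.70%, beside 2.52% of all protein-coding genes. None of 78 mitochondrial ribosomal protein genes, 93 respiratory chain and ATP synthase genes, 50 proteasome genes or 82 histone genes had one. The upper bounds of the exact intervals were 4.62%, 3.89%, 7.11% and 4.40%, all above 2.52%, so these counts do not set the lists apart. The ribosomal protein list had 1 of 95 (1.05%), at Rpl3, 542 bp downstream of its start and 8 bp upstream of a start of the neighbouring Syngr1. Translation factors had 2 of 67 (2.99%), Eif1a and Eif4g1, with scores of 4.05 and 3.01, the former nearer to a start of the neighbouring Tmed7. Splicing factors had 2 of 72 (2.78%), Srsf9 with 6.90 and Srsf2 with 3.73, the latter nearer to a start of Mfsd11. DNA replication and repair had 2 of 93 (2.15%), Mcm9 with 6.48 and Ercc1 with 2.99, the last in a window of 48.5% GC. RNA polymerase, Mediator and TFIID genes had 3 of 81 (3.70%), of which Med12l scored 7.39, Polr3e 5.22 and Taf5 2.06.

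Cyclins and cyclin-dependent kinases had 3 of 38 (7.89%, 1.66% to 21.4%), an interval that holds the 2.52% of all genes. Ccne2, cyclin E2 of the entry into S phase, had 2 summits, with scores of 6.81 at 6 bp upstream of one start and 6.17 at 488 bp upstream of another. Cdk13 and Cdk9, kinases of the RNA polymerase II tail, had 4.57 and 3.26 within 100 bp of a start. Ubiquitin-conjugating enzymes and deubiquitinases had 8 of 111 (7.21%, 3.16% to 13.7%, beside 2.52% of all genes), led by Usp3 with 8.83, Usp46 with 8.28, Ube2e2 with 7.14 and Ube2q2 with 6.32. A summit shared with PU.1 was at 6 of the 111, beside 2.55% of all, and a PU.1 summit without BATF at 13, beside 2.81%. The median GC content at the starts of the list was 65%, against 58.5% for all genes. Ube2q2 had the nearest PU.1 summit of all 557, at 531 bp. Zinc finger proteins had 15 of 465 (3.23%, 1.82% to 5.26%, which holds 2.52%), led by Zfp740 with 8.45, Zfp710 with 6.62, Zfp362 with 6.32 and Zfp292 with 6.10. The summit counted for Zfp740 was nearer to a start of Csad. Of the 548 genes, 500 were in none of the 16 lists.

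Over all protein-coding genes, 11.8% of the 2030 with at least 75% GC at the start had a BATF summit without PU.1, and 1.57% of the other 19725. Of the 16 lists, 7 likewise had the higher share among their genes of at least 75% GC, 4 had the lower share there, 3 had no summit in either range and 2, proteasome and replication and repair, had no gene of at least 75% GC. No list held more than 34 such genes, so these orders rest on small counts. Zinc finger proteins had 3 of 34 and 12 of 431 below that GC content, and ubiquitin enzymes had 1 of 26 and 7 of 85. The lists were not tested against genes of equal GC content.

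Of the 548 genes, 11 (2.01%) also had a promoter summit shared by BATF and PU.1, beside 554 (2.55%) of all protein-coding genes. A PU.1 summit without BATF was also present at 17 (3.10%), beside 611 (2.81%) of all. Both shares were close to those over all genes, which were not matched for GC content. Among genes of at least 80% GC at the start, 22.5% had a shared summit and 13.5% a PU.1 summit without BATF. The rule left out BATF summits with PU.1 within 500 bp, so a gene was counted in 2 kinds only through separate summits. These counts therefore do not show whether the kinds avoid or share genes. The 557 summits had 553 distinct nearest genes. Only 4 genes were nearest to 2 summits each, Arid2, Cabp7, Ccne2 and Gse1, of which all but Ccne2 are named after their values were seen. For 30 summits no protein-coding start lay within 1000 bp, and for 25 there were at least 2 protein-coding genes. The nearest gene was protein-coding in 512 cases (91.9%), an antisense transcript in 12, a processed pseudogene in 9 and a lincRNA in 8.

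Across the chromosomes the summits were spread broadly as the genes were, with exceptions in both directions. Chromosome 11 held 50 summits and chromosome 4 held 47. Chromosome 12 held 5.39% of the summits and 2.96% of the protein-coding genes, chromosome 15 held 5.92% and 3.61%, chromosome 7 held 6.10% and 9.30%, and chromosome X held 1.80% and 4.36%.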

How the data were processed

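Summit lists of 5 ChIP-Seq libraries of Th9 cells, 1 each for BATF, PU.1, Input, goat Ig and rabbit Ig, were analysed. The authors deposited for each library single-base summits with a score, whose definition is not given in the sources used here. The submitters' processing notes name Bowtie2 and mm10, the methods name Bowtie, MACS for conversion and FindPeaks for peak calling, and the summit names are those of MACS2. A version is given for MACS in the conversion step, while the version of MACS2, the options and control of the calling and the depth of each library are not given in the sources used here. A deeper library or a looser threshold would list more summits, and multiply mapped reads could change those in repeats.

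Members and gene lists were chosen with earlier results of these data known. Positions are 1-based on GRCm38, sequence came from GRCm38.p6 and starts from GENCODE M21 (139486 starts of all transcripts). No summit of BATF or PU.1 lay beyond a chromosome end. The distance of each summit to the nearest start was signed along that gene's strand. Windows of 200 bp were scored for GC content, masked bases, CpG and strings on both strands, without a motif score. For windows at genes, 1 start per protein-coding gene was used. Each 95% interval of a share is exact (Clopper-Pearson). No test was made, since each antibody had 1 library.

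Named were the 12 summits of highest score, every summit at a gene of the first 4 lists, up to 12 summits of highest score with an AP-1 or cAMP response element string within 100 bp, and up to 4 genes of highest score for each other list. Of the 12, 1 is not reported here. The score groups, GC ranges, GC profile, mirror positions, comparison with starts of at least 75% GC, words of 6 bases, runs of G and the list of chromatin regulators were chosen after the data were seen. Alternatives covered the distances, the starts counted, scores above the list median, summits near controls and the window size. Lists of other antibodies, and summits on chromosome Y and unplaced sequences, were not analysed here. Functions were tested on simulated data. Windows were read with pysam 0.24.0 and intervals computed with scipy 1.17.1, in Python 3.11.15 with pandas 2.3.3 and numpy 2.4.6.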

Additional observations from a re-analysis of the deposited data

How the results depend on the processing

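With starts of protein-coding genes only, the share of GC-rich windows was 89.0%. With scores above the list median, 318 summits and 323 protein-coding genes were left, because fewer summits entered, and 90.3% of the windows were GC-rich. In 100 bp windows the GC-rich share was 75.4%, and in 400 bp windows it was 88.9% with a median GC content of 77.25%. Why the share moved with the window was not tested. The other 19 alternatives for the counts, the GC content, the position and the divergent promoters stayed within the interval of the main value or, for counts, within 1.5 times. Among the shares of single strings 52 stayed within their interval and 13 did not, all of them with 100 or 400 bp windows, which hold fewer or more letters. A replicate could not be left out, because there was 1 library per antibody. No paired analysis was possible because there were no replicates. The depth is unknown, so its part in the number of summits without PU.1 was not tested.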

Other observations

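Several of the highest summits lay at genes of chromatin regulators, so a list of 172 such genes (histone methyltransferases, demethylases, acetyltransferases, deacetylases, remodellers and their partners) was drawn up by gene name after the members had been seen. Its count is therefore a description of what drew attention and supports nothing. A BATF summit without PU.1 was at 25 of the 172 (14.5%), beside 2.52% of all protein-coding genes. A summit shared with PU.1 was at 14, beside 2.55% of all, and a PU.1 summit without BATF at 13, beside 2.81%. The GC content at their starts had a median of 65.5%. Among genes with at least 75% GC at the start the share was 9 of 36 in the list and 11.8% over all genes, and below that GC content it was 16 of 136 in the list and 1.57% over all genes. The members were led by Jade1, Kmt2d, Sirt1, a deacetylase with a score of 10.2, and Kdm2b, a demethylase that binds CpG islands. The summit of Dnmt3a, a DNA methyltransferase, had a score of 8.73 in an intron, with a PU.1 summit 956 bp away. Its sequence and that of the Sirt1 intron are shown with CG in capitals.
Sirt1 (chr10:63338411-63338510, minus strand): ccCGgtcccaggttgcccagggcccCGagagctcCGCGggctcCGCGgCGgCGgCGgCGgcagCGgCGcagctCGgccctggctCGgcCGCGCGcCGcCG
Dnmt3a (chr12:3807685-3807784, plus strand): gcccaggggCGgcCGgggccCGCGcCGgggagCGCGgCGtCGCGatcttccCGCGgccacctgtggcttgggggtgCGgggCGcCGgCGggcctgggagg

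The word of 6 bases found in most windows was CGCCGC, in 84.9% of the 557 on either strand, in 91.4% of the summits shared with PU.1, in 26.3% of all protein-coding starts and in 60.9% of GC-rich starts. A pattern of 4 runs of at least 3 G, with gaps of up to 7 bases on one strand, was in 193 windows (34.6%, 30.7% to 38.8%). It was in 29.0% of the summits shared with PU.1, in 22.1% of the PU.1 summits without BATF, in 16.2% of all protein-coding starts and in 32.4% (31.3% to 33.5%) of GC-rich starts, so the interval of the 557 held the share at GC-rich starts. GC-rich starts had a median GC content of 71% and the 557 windows 80.5%, so neither comparison is matched for GC.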
